A study of Mus musculus with 18 samples.

Results

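The promoters of protein-coding genes were followed with 3 transcription factors, PU.1 and the C/EBP family members α and β, in 18 ChIP-seq libraries made during the conversion of pre-B cells into induced macrophages (iMΦ). A promoter was the window from 500 bp before to 500 bp after an annotated transcription start site (TSS) of a protein-coding gene on chromosomes 1 to 19 of mm9, in the GENCODE vM1 annotation, and overlapping windows of the same gene were merged. This gave 38176 promoters of 21418 genes, of which 13356 genes had 1 promoter and 8062 genes had 2 or more, and the promoters covered 1.71% of the sequenced bases of these chromosomes. The choice of windows used no read of any library. For 25274 promoters the window held a single TSS, and 3080 promoters overlapped the promoter of another gene, so that their reads counted for both. The rest of the genome was represented by 2317674 tiles of 1 kb that touched no promoter.

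All libraries came from C10 cells, 1 line of the HAFTL pre-B cells that carries C/EBPα fused to the hormone-binding part of the estrogen receptor and tagged with GFP. The ligand β-estradiol (β-Est) activates the fusion, and this starts the conversion. The study detected weak C/EBPα signals in uninduced cells and proposes some leakiness of the transgene. If so, 0 hpi is a limited control for C/EBPα. According to the labels, induced cells received 100 nM β-Est together with 10 nM IL-3 and CSF-1, and control cells received the solvent, 0.1% ethanol. The 8 libraries of C/EBPα were from 0 hr post-induction (hpi), from 10, 30 and 60 min, and from 3, 12, 24 and 48 hpi. The 5 libraries of C/EBPβ, like the 5 of PU.1, were from 0, 3, 12, 24 and 48 hpi. Each factor and time had 1 library, so that differences between times had no replicate check and were given with no test. Intervals of 95% are exact Poisson for reads and Clopper-Pearson for shares. For reads they cover counting error only. For shares they treat promoters as independent draws, though 3080 overlapped the promoter of another gene. Neither kind covers variation between libraries.

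A promoter is the stretch of DNA around the start of a gene on which the general transcription machinery assembles, and transcription factors bind there as well as at distant enhancers. C/EBPα and C/EBPβ are leucine zipper factors that recognise the same palindromic sequence and drive myeloid genes, and C/EBP proteins can also pair with ATF proteins on a composite site. PU.1 is an ETS factor that is made in B cells and, at higher levels, in macrophages, and it binds a purine-rich sequence around GGAA. Promoters of broadly expressed genes mostly lie in CpG islands, whereas promoters of many tissue-restricted genes are poor in CpG.

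The sequences that carry the main patterns are shown first, as the 200 bases before the TSS on the strand of the gene, 5′ to 3′ in mm9, with the motif matches in capitals. None overlapped an annotated exon. The first group holds promoters with the C/EBP motif TTGCNNAA, namely *Orm1* (chr4:63005394-63005593, plus strand), *Ndel1* (chr11:68685361-68685560, minus strand) and *Cotl1* (chr8:122364480-122364679, minus strand), which were bound to the last time, and *Ifi47* (chr11:48889889-48890088, plus strand), which was bound most strongly within the first hour and also holds the PU.1 motif GAGGAAGT.
Orm1: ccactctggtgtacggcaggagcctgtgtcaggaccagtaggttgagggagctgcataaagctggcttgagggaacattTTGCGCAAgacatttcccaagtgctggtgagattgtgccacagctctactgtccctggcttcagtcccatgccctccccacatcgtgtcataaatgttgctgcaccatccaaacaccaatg
Ndel1: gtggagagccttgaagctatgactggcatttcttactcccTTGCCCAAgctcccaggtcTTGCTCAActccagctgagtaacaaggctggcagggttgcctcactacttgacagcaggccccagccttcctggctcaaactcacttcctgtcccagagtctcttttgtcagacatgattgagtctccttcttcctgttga
Cotl1: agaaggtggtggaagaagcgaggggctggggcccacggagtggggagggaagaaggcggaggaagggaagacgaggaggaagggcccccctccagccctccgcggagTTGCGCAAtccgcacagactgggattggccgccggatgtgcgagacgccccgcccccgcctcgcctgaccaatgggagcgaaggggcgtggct
Ifi47: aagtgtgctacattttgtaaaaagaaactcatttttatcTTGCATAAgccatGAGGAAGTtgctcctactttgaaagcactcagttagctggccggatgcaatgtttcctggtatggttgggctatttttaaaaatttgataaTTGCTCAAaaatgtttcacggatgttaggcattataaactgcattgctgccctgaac
The C/EBP matches ran from -121 to -114 in *Orm1*, from -160 to -153 and -141 to -134 in *Ndel1*, from -93 to -86 in *Cotl1*, and from -161 to -154 and -57 to -50 in *Ifi47*, counted from the TSS. The PU.1 match of *Ifi47* ran from -148 to -141. The densest 100 bp of C/EBPα reads were centred at -98 in *Orm1* and -121 in *Ndel1* at 48 hpi and at -113 in *Ifi47* at 60 min, and those of C/EBPβ at 48 hpi at -76.5 in *Cotl1*.

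A second group holds *Chac1* (chr2:119176765-119176964, plus strand) and *Pycr1* (chr11:120505084-120505283, minus strand), whose upstream bases contain TGATGNAA, which joins one arm of a C/EBP site to one arm of an ATF site. This motif was searched after the binding values had been seen. *Pycr1* also holds the C/EBP motif, at the far end of the bases shown.
Chac1: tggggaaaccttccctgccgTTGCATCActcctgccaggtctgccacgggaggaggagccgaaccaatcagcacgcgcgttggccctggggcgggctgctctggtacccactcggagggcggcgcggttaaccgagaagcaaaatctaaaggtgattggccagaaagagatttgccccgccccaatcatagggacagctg
Pycr1: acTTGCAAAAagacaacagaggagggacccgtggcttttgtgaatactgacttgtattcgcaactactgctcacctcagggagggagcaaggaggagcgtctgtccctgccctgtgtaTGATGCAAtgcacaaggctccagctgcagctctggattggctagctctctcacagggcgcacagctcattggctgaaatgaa
The match ran from -180 to -173 in *Chac1* and from -82 to -75 in *Pycr1*, where the C/EBP match ran from -198 to -191, and the densest 100 bp of C/EBPβ reads at 48 hpi were centred at -170.5 and -123.

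The third group holds promoters bound by PU.1. *Nckap1l* (chr15:103284056-103284255, plus strand) contains the PU.1 motif, and *C3ar1* (chr6:122806180-122806379, minus strand) contains the AP-1 motif TGANTCA.
Nckap1l: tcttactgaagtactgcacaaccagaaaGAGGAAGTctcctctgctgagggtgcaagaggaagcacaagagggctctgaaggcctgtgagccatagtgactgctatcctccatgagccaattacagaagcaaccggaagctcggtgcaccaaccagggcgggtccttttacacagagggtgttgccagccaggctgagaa
C3ar1: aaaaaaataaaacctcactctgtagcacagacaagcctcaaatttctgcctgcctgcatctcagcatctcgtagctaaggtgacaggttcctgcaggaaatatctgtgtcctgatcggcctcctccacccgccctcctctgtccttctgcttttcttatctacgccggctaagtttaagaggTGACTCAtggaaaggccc
The PU.1 match of *Nckap1l* ran from -172 to -165, beside densest 100 bp of PU.1 reads at 48 hpi centred at -156.5. The AP-1 match of *C3ar1* ran from -18 to -12, and its densest 100 bp of PU.1 reads were centred at 38, after the TSS.

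Binding was measured as a density, the reads per kb of promoter per 10000000 reads of the library. The libraries held between 2824293 reads (C/EBPβ at 12 hpi) and 24236183 reads (C/EBPα at 10 min). A promoter was called occupied where its reads were at least 4-fold over those expected from the larger of the mean density of the genome and the density of the surrounding 10 kb, with a Poisson p of at most 0.0001. At the depth of these libraries the lowest read count of an occupied promoter was between 8 and 42. The C/EBPα libraries of 10, 30 and 60 min were made on another sequencer with reads of 50 bases, in place of 36 bases in the other C/EBPα and the PU.1 libraries and 40 bases for C/EBPβ, so that for C/EBPα the first hour and the sequencer cannot be told apart.

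Over the whole time course 7474 promoters (19.6%) were occupied in at least 1 library, against 2.31% of the tiles, and 30702 were occupied in none. PU.1 occupied the most promoters at every time at which it was profiled. C/EBPα occupied 348, 223, 645, 634, 899, 2866, 1621 and 1391 promoters in the order 0 hpi, 10, 30 and 60 min, and 3, 12, 24 and 48 hpi, which are 0.912, 0.584, 1.69, 1.66, 2.35, 7.51, 4.25 and 3.64% of all promoters. C/EBPβ occupied 254, 308, 321, 555 and 1274 promoters at 0, 3, 12, 24 and 48 hpi, or 0.665, 0.807, 0.841, 1.45 and 3.34%. PU.1 occupied 2826, 3429, 5280, 3762 and 2691 promoters at the same times, or 7.4, 8.98, 13.8, 9.85 and 7.05%. The C/EBPα and PU.1 numbers thus had a maximum at 12 hpi and C/EBPβ its maximum at 48 hpi. The interval of the C/EBPα share was 7.24 to 7.78% at 12 hpi and 3.46 to 3.84% at 48 hpi. That of the PU.1 share at 12 hpi was 13.5 to 14.2%. With 1 library per time these intervals do not measure how far shares differ between libraries.

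**Figure D1:**
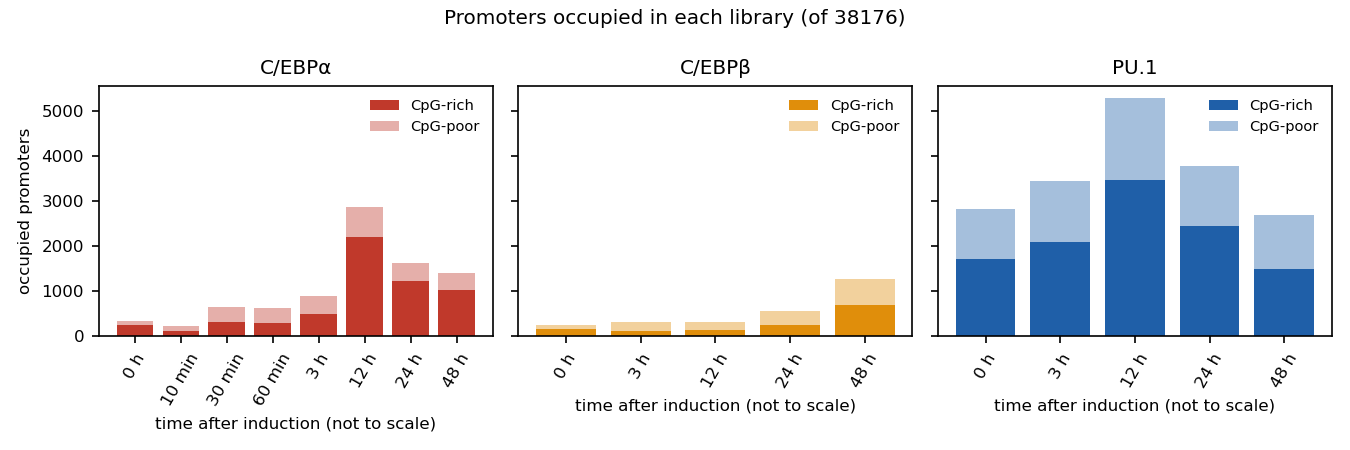
Number of promoters occupied by each factor (y axis) in each library (x axis, time after induction, not to scale), as stacked bars of CpG-rich (dark) and CpG-poor (light) promoters. C/EBPα and PU.1 were highest at 12 hpi, with 2198 and 3464 CpG-rich promoters, and C/EBPβ was highest at 48 hpi, with 1274 promoters of both classes.

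The 12 hpi maximum lay mainly in CpG-rich promoters, defined by an observed-to-expected CpG ratio of at least 0.6 and a GC content of at least 50%. These were 10293 promoters, and 27883 were CpG-poor. C/EBPα occupied 2.52, 1.22, 3.08, 2.89, 4.69, 21.4, 11.8 and 9.99% of the CpG-rich and 0.319, 0.348, 1.18, 1.21, 1.49, 2.40, 1.46 and 1.30% of the CpG-poor promoters over its 8 libraries. The CpG-rich share was thus several times larger at 12 hpi than at 3 hpi, whereas the CpG-poor share moved less. For PU.1 the CpG-rich share was 16.6, 20.2, 33.7, 23.7 and 14.5% and the CpG-poor share 4.02, 4.85, 6.51, 4.76 and 4.29%. C/EBPβ took another course, with 1.54, 1.13, 1.38, 2.45 and 6.77% of CpG-rich and 0.344, 0.689, 0.642, 1.09 and 2.07% of CpG-poor promoters and the highest value of both classes at 48 hpi.

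Several other values moved with the 12 hpi maximum. The median density of CpG-rich promoters in C/EBPα libraries was 9.27, 7.01, 6.95, 6.83, 10.1, 17.4, 14.2 and 12.9, and that of the olfactory receptor promoters, a family silent outside the nose, was 3.46, 3.30, 3.16, 3.15, 2.76, 1.71, 2.70 and 2.57. The corresponding PU.1 medians were 10.7, 12.5, 20.9, 15.4 and 10.6 for CpG-rich promoters and 2.90, 3.11, 1.91, 2.70 and 2.94 for olfactory receptors. In both factors the median over CpG-rich promoters was highest at 12 hpi. The medians over olfactory receptors are those of a few reads per window, in C/EBPα at 12 hpi of a single read, and move in steps of whole reads. Their mean densities were 3.45, 3.59, 3.43, 3.35, 3.17, 3.01, 3.24 and 3.28 for C/EBPα and 3.05, 2.91, 2.54, 2.78 and 2.91 for PU.1. Of all reads, 3.26, 2.44, 2.66, 2.66, 3.58, 4.82, 4.13 and 3.86% lay in promoters for C/EBPα, 3.06, 2.78, 2.88, 3.07 and 3.72% for C/EBPβ and 4.17, 4.58, 6.47, 5.13 and 4.14% for PU.1. The part of chromatin fragmentation and immunoprecipitation in these differences was not tested. The median log2 ratio of promoters occupied in no library was -0.22 at 60 min against 0 hpi, 0.12 for C/EBPα at 12 against 3 hpi and -0.13 for PU.1 at 48 against 12 hpi, and lay within 0.1 of 0 in the other comparisons between times.

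**Figure D2:**
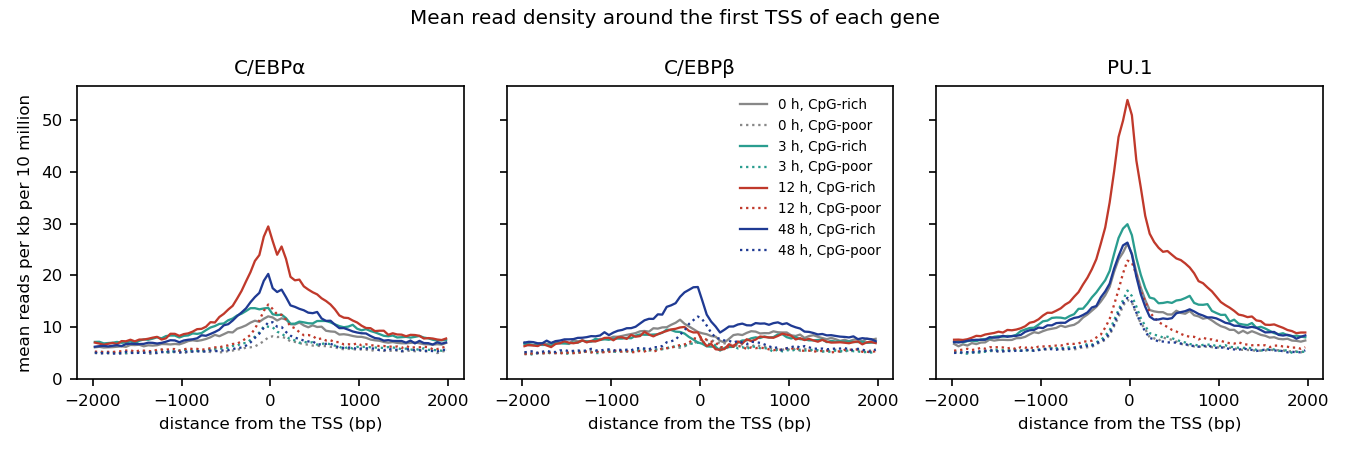
Mean density (reads per kb per 10000000 reads, y axis) of the 3 factors by distance from the first TSS of each gene (x axis, in bp) at 0, 3, 12 and 48 hpi, with CpG-rich promoters as solid and CpG-poor promoters as dotted lines. All 3 factors had their highest densities near the TSS of CpG-rich promoters, where the 12 hpi lines of C/EBPα and PU.1 and the 48 hpi line of C/EBPβ were the highest.

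In most occupied promoters with 1 TSS the densest 100 bp of reads were centred before the TSS. The centre of the densest 100 bp had a median position of -32.25, -77, -79.75, -81, -65, -48, -47 and -47.25 bp from the TSS in the C/EBPα libraries, of -68.75, -88.25, -75, -84.5 and -71 bp in the C/EBPβ libraries, and of -50, -52, -37.25, -38 and -58 bp in the PU.1 libraries. Between 59.1% and 71.2% of the occupied promoters with 1 TSS had it upstream. The density of occupied promoters had a median of 27.4, 33.4, 39.5, 39.9, 36.2, 32.5, 28.3 and 28.3 for C/EBPα, so that the many promoters occupied at 12 hpi were not more densely bound than the fewer ones of 30 and 60 min. Densities over 100 occurred at 102 promoters for C/EBPα and 828 for PU.1 at 12 hpi, and at 204 promoters for C/EBPβ at 48 hpi.

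The promoters that C/EBPα occupied first at 12 hpi outnumbered those of every other time. Taking the first library in which a promoter was occupied, 348 promoters were occupied at 0 hpi, 110 were first occupied at 10 min, 389 at 30 min, 125 at 60 min, 326 at 3 hpi, 1975 at 12 hpi, 378 at 24 hpi and 225 at 48 hpi, which sum to the 3876 promoters occupied by C/EBPα in at least 1 library. The promoters first occupied at 12 hpi were CpG-rich in 82.9% of cases, and those first occupied at 30 min in 42.4%. The C/EBP motif was found in 54.9% of the promoters first occupied at 30 min and in 25.4% (23.1 to 27.8) of those first occupied at 12 hpi, beside 31.8% of all promoters. Within the CpG-rich class these shares were 53.2% (43.4 to 62.8) and 22.8% (20.3 to 25.4), beside 23.3% of all CpG-rich promoters, and within the CpG-poor class 56.1% (48.1 to 63.8) and 37.4% (31.2 to 43.9), beside 34.2%. The share at 12 hpi was thus near that of its class. The call at 12 hpi was often limited to that library, as 1157 promoters were called occupied by C/EBPα at 12 hpi alone. Their mean density was 12.0 at 0 hpi, 30.3 at 12 hpi, 17.4 at 24 hpi and 16.8 at 48 hpi. The lowest density of an occupied promoter was 16.7 at 24 and at 48 hpi, so that on average they stayed near the call limit. Of the 1975 first occupied at 12 hpi 495 (25.1%) were occupied at 48 hpi. The mean C/EBPα density of the 1975 was 12.5 at 0 hpi, 14.4 at 3 hpi, 31.6 at 12 hpi and 19.7 at 48 hpi. Of the 110 promoters first occupied at 10 min, 58 (52.7%) were occupied at 48 hpi, with mean densities of 18.8 at 0 hpi, 72.4 at 3 hpi and 39.7 at 48 hpi. At 48 hpi C/EBPα occupied 3.64% of all promoters, 9.99% of CpG-rich and 1.30% of CpG-poor ones. The 110 were CpG-rich in 43.6% of cases, so the 25.1% and the 52.7% have different backgrounds.

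Changes between times were called at promoters with a mean density of at least 20 over the 2 libraries, where the log2 ratio of the densities, each with 5 added, was at least 1 in size. This ratio understates the change of weakly bound promoters. C/EBPα was at least 2-fold higher at 60 min than at 0 hpi at 334 of 804 promoters (41.5%) and lower at 23 (2.86%). At 3 hpi 484 of 1398 promoters (34.6%) were higher than at 0 hpi and 1 (0.0715%) was lower. From 3 to 12 hpi 946 of 4154 (22.8%) were higher and 72 (1.73%) lower. From 12 to 48 hpi 10 of 4879 (0.205%) were higher and 565 (11.6%) lower, and between 3 and 48 hpi 117 of 2412 (4.85%) were higher and 257 (10.7%) lower. Over the whole course from 0 to 48 hpi, 362 of 1709 promoters (21.2%) were higher and 7 (0.41%) lower. With no minimum density 1642 were higher and 721 lower, and with a minimum of 10 they were 1054 and 91, so that the small number of lower promoters depended on the minimum. By CpG class, at 60 min 55.0% of the CpG-poor and 26.7% of the CpG-rich promoters with enough reads were higher than at 0 hpi, whereas from 3 to 12 hpi 12.6% of the CpG-poor and 28.2% of the CpG-rich ones were higher. CpG-poor promoters had lower densities at 0 hpi, and those that reached the minimum only through their higher library can raise the share called, so that these shares do not test a difference between the classes. These comparisons share libraries.

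Some promoters held C/EBPα up to 48 hpi. The promoter of *Orm1*, which encodes the plasma protein orosomucoid, had C/EBPα densities of 6.93, 3.71, 7.90, 15.2, 193, 226, 212 and 205. It was low for the first hour and high in all 4 later libraries, with 6.93 (2.54 to 15.1) at 0 hpi and 205 (174 to 239) at 48 hpi, a log2 ratio of 4.14. C/EBPβ followed there with 7.19, 94.9, 159, 246 and 283, whereas PU.1 remained between 1.56 and 11.7. *Orm1* has near-identical neighbours, and since only uniquely aligned reads were deposited its values are uncertain. *Hp*, encoding haptoglobin, had C/EBPα densities of 9.24, 7.83, 13.4, 29.4, 75.6, 190.1, 154 and 119.7, with 9.24 (3.99 to 18.2) at 0 hpi and 119.7 (96.6 to 147) at 48 hpi.

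*Ndel1*, whose product acts with dynein at the centrosome, had the highest C/EBPα density at 48 hpi of the promoters named by rank. Its densities were 20.8, 44.9, 218, 214, 358, 459, 368 and 326, from 20.8 (12.3 to 32.8) at 0 hpi to 326 (287 to 368) at 48 hpi, and the 30 min value was already 218. *Galnt9*, which encodes a glycosyltransferase that starts O-linked sugar chains, was slower at its second promoter, with 17.3, 14.8, 24.5, 54.1, 181, 269, 224 and 246. *Psen2*, encoding a catalytic subunit of γ-secretase, was slower still, with 2.31, 9.48, 15.0, 37.3, 49.8, 70.2, 86.3 and 129, and was the strongest C/EBPα increase by log2 ratio among these promoters. With 2 reads at 0 hpi its log2 ratio was 4.19, or 5.80 (3.91 to 8.87) with nothing added. The 3 promoters thus differed in when they first passed a density of 100, *Ndel1* at 30 min, *Galnt9* at 3 hpi and *Psen2* at 48 hpi. *Tcfec*, which encodes a transcription factor of the macrophage lineage, had 1.15, 4.53, 15.8, 24.7, 108, 99.3, 68.8 and 55.4, with its maximum at 3 hpi. *Gpr84*, a receptor for fatty acids on myeloid cells, had 8.08, 18.5, 167, 191, 222, 176, 136 and 95.3, also highest at 3 hpi and at 48 hpi still above the value of 0 hpi, 8.08 (3.25 to 16.7).

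Other promoters were most densely bound early. *Bcl6*, which encodes a transcriptional repressor of germinal centre B cells, had C/EBPα densities of 6.93, 64.3, 139, 119.8, 46.1, 44.5, 33.7 and 28.3. The value was high at 10 min, highest at 30 min, and at 48 hpi 28.3 (17.7 to 42.9) against 6.93 (2.54 to 15.1) at 0 hpi. *Ifi47*, an interferon-inducible GTPase gene, had 10.4, 34.6, 151, 128, 107, 56.5, 54.0 and 42.5, again highest at 30 min. *Dnase1l3*, encoding a secreted DNase, behaved later, with 10.4, 21.8, 52.1, 69.4, 219, 44.5, 27.0 and 19.3. Its only density over 100 was that of 3 hpi, 219 (192 to 249), and at 48 hpi it was 19.3 (10.8 to 31.8), a log2 ratio of -3.21 between 3 and 48 hpi. *Gnb5*, a G protein β subunit gene, had 81.1 (65.0 to 99.9) at 3 hpi and 2.57 (0.312 to 9.30) at 48 hpi at its second promoter, a log2 ratio of -3.51, or -4.98 (-8.05 to -3.08) with nothing added. *Hip1r*, encoding an adaptor of clathrin coats, had 96.7 and 5.15 (log2 ratio -3.33).

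*Slc11a1*, which encodes the metal transporter of the macrophage phagosome, had 2 promoters with different time courses. The first had C/EBPα densities of 10.1, 7.83, 21.4, 18.1, 66.0, 139, 71.0 and 50.8, highest at 12 hpi. The second had 21.9, 33.0, 115, 99.9, 167, 123, 45.9 and 21.9, high from 30 min to 12 hpi and at 48 hpi as low as at 0 hpi. At 48 hpi the intervals of the first, 50.8 (38.2 to 66.3), and of the second, 21.9 (12.7 to 35.0), did not overlap. *Smarca2*, encoding an ATPase of the SWI/SNF remodelling complex, was among the 7 promoters that were at least 2-fold lower in C/EBPα at 48 than at 0 hpi. The third promoter had 40.4, 73.0, 153, 117, 59.0, 42.8, 21.6 and 12.9, with a log2 ratio of -1.35 between 48 and 0 hpi after a maximum at 30 min.

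**Figure D3:**
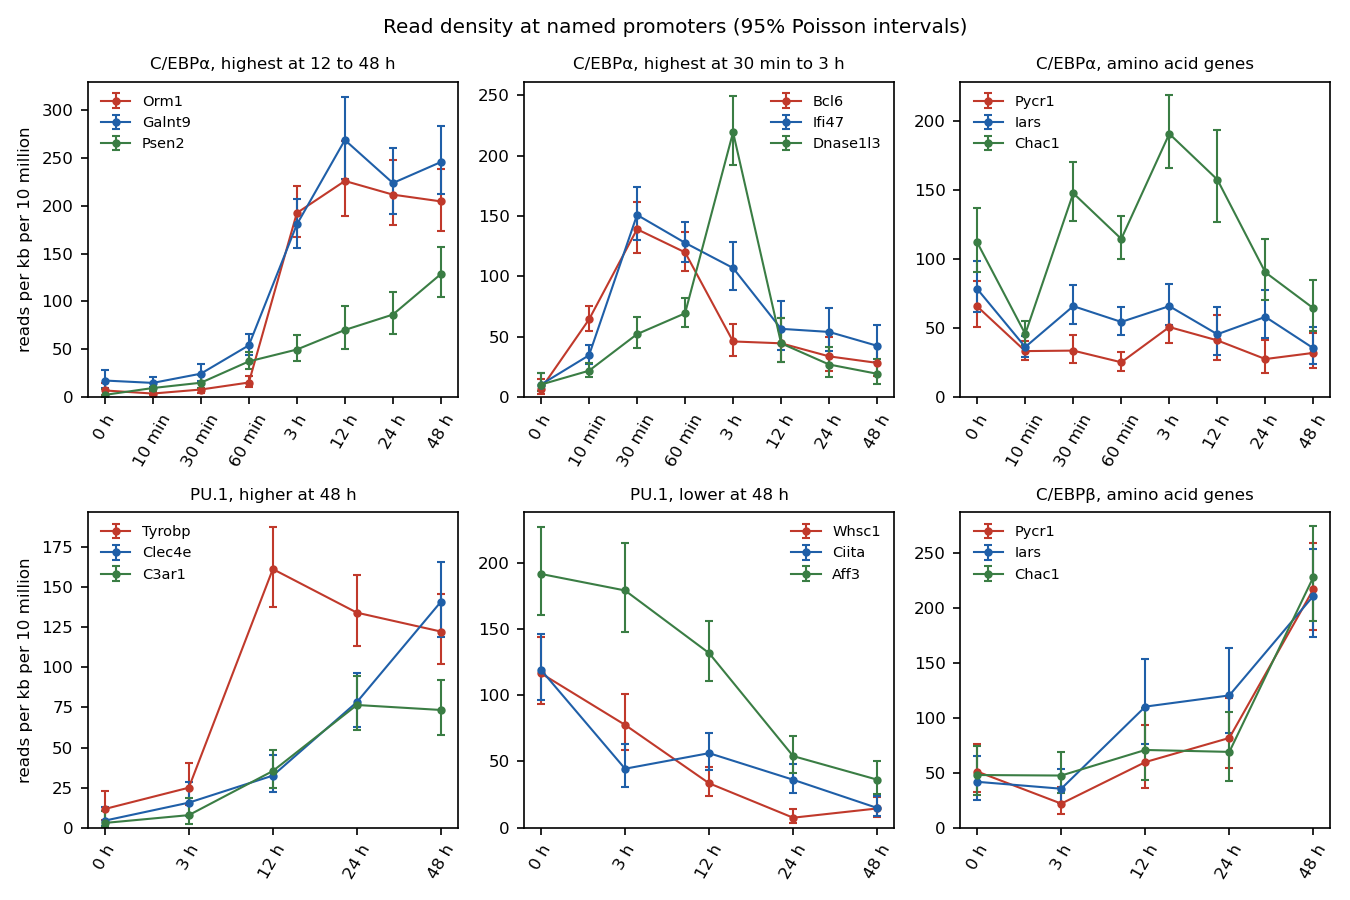
Densities (reads per kb per 10000000 reads, y axis) of named promoters in every library of a factor (x axis, time after induction), with 95% Poisson intervals as bars. *Orm1*, *Galnt9* and *Psen2* kept C/EBPα to 48 hpi, *Bcl6*, *Ifi47* and *Dnase1l3* had an early maximum, and *Pycr1*, *Iars* and *Chac1* had their highest C/EBPβ density at 48 hpi; PU.1 was highest after 0 hpi at *Tyrobp*, *Clec4e* and *C3ar1*, and highest at 0 hpi at *Whsc1*, *Ciita* and *Aff3*. The second promoters of *Galnt9*, *Whsc1* and *Ciita* are plotted.

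C/EBPβ occupancy of promoters was mostly a late event. Of the 1610 promoters it occupied in at least 1 library, 713 were occupied at 48 hpi alone and 56 in all 5 libraries. C/EBPβ was at least 2-fold higher at 3 hpi than at 0 hpi at 108 of 937 promoters (11.5%) and lower at 39 (4.16%). At 48 hpi it was higher than at 0 hpi at 907 of 2017 promoters (45.0%) and lower at 41 (2.03%). With no minimum density the numbers were 3615 and 2404, and with a minimum of 10 they were 1748 and 476. Of those with enough reads 44% of the CpG-rich and 45.9% of the CpG-poor promoters were higher at 48 hpi. Promoters that reached the minimum only through the 48 hpi library can raise these shares, which do not test how the classes compare.

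The most densely bound C/EBPβ promoters at 48 hpi included *Ndel1*, with 28.8, 204, 209, 292 and 412, and *Cotl1*, which encodes an actin-binding protein, with 77.1, 103, 110.4, 171 and 336. *Cotl1* was already at 77.1 (53.4 to 108) before induction and reached 336 (289 to 389.9). *Mmp19*, a metalloproteinase gene, began low, at 4.79 (0.580 to 17.3), and had 4.79, 15.8, 31.8, 85.4 and 234, a log2 ratio between 48 and 0 hpi of 4.61, or 5.61 (3.73 to 8.67) with nothing added. *Il1rn*, encoding the antagonist of the IL-1 receptor, had 4.52, 58.0, 117, 139 and 181 at its second promoter and was above its 0 hpi density from 3 hpi on. At the interferon response promoter of *Mx1*, encoding an antiviral GTPase, C/EBPβ was high from 24 hpi, with 21.5, 1.75, 10.6, 75.4 and 127. *Gbp2*, another interferon-inducible GTPase gene, filled more evenly, with 6.96, 22.1, 58.2, 73.1 and 106.

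A group of amino acid metabolism promoters was bound by both C/EBP factors with different time courses. *Pycr1* encodes the last enzyme of proline synthesis, *Iars* the isoleucyl-tRNA synthetase, *Mars* the methionyl-tRNA synthetase, *Chac1* an enzyme that degrades glutathione, and *Atf3* a stress-induced transcription factor. At *Pycr1* C/EBPβ had 51.1, 21.8, 59.7, 81.7 and 217, with 51.1 (32.7 to 76.0) at 0 hpi and 217 (180.2 to 259) at 48 hpi. C/EBPα there had 65.6, 33.3, 33.7, 25.2, 50.7, 41.1, 27.6 and 32.0, so that its highest density was the one before induction. *Iars* had 41.7, 35.4, 110.2, 120.5 and 211 for C/EBPβ and 78.3, 36.3, 65.9, 54.4, 65.9, 45.5, 58.1 and 35.4 for C/EBPα, the latter with a log2 ratio of -1.04 between 48 and 0 hpi. *Chac1* had 47.9, 47.4, 70.7, 69.0 and 228 for C/EBPβ and 112, 45.8, 148, 115, 191, 158, 90.4 and 64.4 for C/EBPα. At all 3 promoters C/EBPβ was highest and C/EBPα lower than at 0 hpi in the 48 hpi library. *Atf3* had C/EBPβ densities of 42.8, 30.0, 103, 98.7 and 241 and C/EBPα densities of 45.9, 31.8, 96.8, 83.2, 90.5, 115, 85.4 and 72.1, and thus more of both at 48 than at 0 hpi. *Mars* had 26.0, 28.5, 47.9, 89.0 and 175 for C/EBPβ and 42.7, 25.3, 32.1, 32.7, 60.7, 49.5, 39.0 and 32.5 for C/EBPα.

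The 2 families to which these genes belong were listed after the values had been seen, so their counts are a description of the choice. Of 12 aminoacyl-tRNA synthetase promoters with enough C/EBPβ reads 9 were higher at 48 hpi and none lower (median log2 ratio 1.69), beside 45.0% higher over all promoters, and of 10 with enough C/EBPα reads none was higher and 1 lower (median -0.07), beside 21.2% higher and 0.41% lower over all promoters. Of 15 promoters of amino acid synthesis and stress genes 11 were higher for C/EBPβ (median 1.59), and of 12 for C/EBPα 1 was higher and 1 lower (median -0.23). Over all promoters the medians were 0.86 for C/EBPβ and 0.52 for C/EBPα. The synthetase promoters occupied by C/EBPα were 15.4, 5.77, 11.5, 9.62, 11.5, 19.2, 11.5 and 17.3% of 52, and those occupied by C/EBPβ 3.85, 5.77, 5.77, 9.62 and 21.2%, beside 0.584 to 7.51% and 0.665 to 3.34% of all promoters. The other strand of the motif TGATGNAA reads TTNCATCA, which holds the TTGC arm of the C/EBP motif only where its N is G. The motif was present in 12.4% of all promoters of at most 1100 bp, in 14.4, 20.2, 13.5, 15.0, 14.6, 8.69, 9.50 and 9.63% of those occupied in the 8 C/EBPα libraries and in 10.9, 18.8, 15.4, 15.2 and 14.1% of those occupied in the 5 C/EBPβ libraries. Over all CpG-rich promoters the share was 5.64% and over all CpG-poor promoters 14.4%.

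C/EBPβ was also counted at the promoters of histone genes. Of 67 promoters of histone genes 13.4, 11.9, 4.48, 4.48 and 8.96% were occupied by C/EBPβ, beside 0.665, 0.807, 0.841, 1.45 and 3.34% of all promoters and 1.54, 1.13, 1.38, 2.45 and 6.77% of the CpG-rich ones, the class of 76.1% of histone promoters, and their median density was 24.0, 21.1, 7.07, 6.57 and 10.1, so that the first 2 libraries were the highest. With enough reads in 28, C/EBPβ was lower at 48 than at 0 hpi in 9 and higher in 3 (median log2 ratio -0.75), beside 2.03% lower and 45.0% higher over all promoters. Histone promoters could reach the minimum density only through the 0 hpi library, where they were high. These counts and the median therefore do not test a difference from other promoters. *Hist2h2bb*, which encodes a histone H2B, had 139, 146, 63.7, 65.7 and 42.4, with 139 (106 to 179.7) at 0 hpi and 42.4 (26.3 to 64.8) at 48 hpi. *Hist1h2bn*, whose promoter overlaps that of *Hist1h2ak*, had 45.5, 29.9, 7.07, 6.57 and 12.1. Histone genes have near-identical copies, neighbouring histone promoters can share their reads, and the cell cycle state of the cultures was not analysed here, so the counts are uncertain. The 41 promoters with less C/EBPβ at 48 hpi contained the C/EBP motif in 20% of the 35 short enough to be searched.

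PU.1 occupied 2826 promoters before induction, and 1942 of these were also occupied at 48 hpi, when PU.1 occupied 7.05% of all promoters. Of 5968 promoters occupied by PU.1 in at least 1 library, 1728 were occupied in all 5 and 1063 at 12 hpi alone. Some of the densest differed by less than 2-fold between 0 and 48 hpi. *Pold4*, encoding a small subunit of DNA polymerase δ, had PU.1 densities of 470.2, 400.2, 435, 351 and 401, and *Cd53*, a leukocyte tetraspanin gene, had 457, 544, 367, 269 and 339. At *Cd53* the intervals of 0 hpi, 457 (408 to 510.5), and 48 hpi, 339 (304 to 376), did not overlap. *Nckap1l*, which encodes the blood cell member of the actin-regulating WAVE complex, had 353, 363, 222, 235 and 288, and its intervals at 0 hpi, 353 (309.7 to 399.9), and at 48 hpi, 288 (256 to 323), overlapped. *Il7r*, the interleukin-7 receptor gene used by pre-B cells, had 176, 219.6, 168, 122 and 184, and its 48 hpi density lay within the 0 hpi interval.

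PU.1 was at least 2-fold higher at 48 than at 0 hpi at 284 of 4259 promoters (6.67%) and lower at 129 (3.03%). These counts depended on the minimum density and the depth, with 1042 higher and 1126 lower when no minimum was set and 455 and 254 when libraries were thinned to equal depth. Of the CpG-poor promoters with enough reads 13.4% were higher and 5.30% lower, and of the CpG-rich ones 1.68% and 1.35%. At 12 hpi, by contrast, 2509 of 6553 promoters (38.3%) were higher than at 0 hpi and 16 (0.244%) lower, in 42.7% of CpG-rich and 30.5% of CpG-poor promoters. From 12 to 48 hpi 50 of 6676 (0.749%) were higher and 2149 (32.2%) lower. Of the promoters called higher than at 0 hpi, 1778 of 2509 were CpG-rich at 12 hpi and 243 of 284 were CpG-poor at 48 hpi. Promoters low at 0 hpi could reach the minimum only through their higher library, so the class shares do not test a difference between the classes.

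The promoters with more PU.1 at 48 hpi included receptors and adaptors of macrophages. *Tyrobp*, which encodes the signalling adaptor DAP12, had 11.6, 24.9, 161, 134 and 122, with 11.6 (5.01 to 22.9) at 0 hpi and 122 (102 to 146) at 48 hpi. *Clec4e*, encoding a C-type lectin that senses microbial glycolipids, had 4.35, 15.6, 32.5, 78.3 and 141, a log2 ratio between 48 and 0 hpi of 3.96, or 5.02 (3.44 to 7.31) with nothing added. *Tyrobp* was highest at 12 hpi, and *Clec4e* was highest in the last library. *C3ar1*, the receptor of the complement fragment C3a, had 2.90, 7.79, 35.3, 76.5 and 73.4, and *Igsf6*, an immunoglobulin superfamily gene, had 5.80, 29.6, 204, 118 and 104. *Fcer1g*, which encodes the signalling chain of Fc receptors, already had 26.9 (16.2 to 42.0) at 0 hpi and had 26.9, 74.4, 181, 137 and 169.8. *Ccl2*, a monocyte chemokine gene, had 4.19, 15.0, 78.1, 71.9 and 66.0. None of these 6 promoters was below its 0 hpi density in any later library. They were named for more PU.1 at 48 hpi, so that this follows in part from the choice.

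The promoters with less PU.1 at 48 hpi included genes of B cells. *Ciita*, which encodes the coactivator of MHC class II genes, had 119, 44.5, 56.2, 36.1 and 14.8 at its second promoter, with 119 (96.0 to 146) at 0 hpi and 14.8 (8.65 to 23.8) at 48 hpi (log2 ratio -2.64). *Aff3*, a transcriptional regulator gene of lymphoid cells, had 192, 179, 132, 54.0 and 36.2, and *Pik3ap1*, which encodes an adaptor of the B cell receptor, had 421, 487, 350.0, 189.6 and 90.6. *Whsc1*, a histone H3 methyltransferase gene, had 116, 77.6, 33.5, 7.48 and 14.5 at its second promoter. *Ciita* was already much lower at 3 hpi, whereas *Aff3* and *Pik3ap1* were within or above their 0 hpi intervals then and below them from 12 hpi. *Cd79a*, a chain of the B cell receptor, had 189, 213, 245, 103 and 62.7, and *Pik3ap1* kept 90.6 (73.3 to 111) at 48 hpi, so that it was still densely bound.

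The promoter of the PU.1 gene itself (*Sfpi1*, second promoter) carried reads of all 3 factors at moderate density. PU.1 had 31.9, 44.4, 66.9, 43.9 and 41.9 and occupied it in the first 4 libraries, and C/EBPα had 17.8, 19.1, 38.5, 36.5, 58.0, 66.1, 45.7 and 35.2 and was not called occupied in any. *Il1b*, encoding the cytokine interleukin-1β, showed a limit of the call, since its first promoter had C/EBPα densities of 12.7, 12.0, 43.4, 42.1, 86.6, 123, 68.8 and 76.0 and PU.1 densities of 52.2, 129, 122, 117 and 187, but was called occupied in 1 library only, C/EBPα at 12 hpi. Because the call is made against the surrounding 10 kb, a promoter inside a broadly bound region can be missed.

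Promoters were also grouped by the function of their genes. For 93 promoters of 59 macrophage genes (phagocyte receptors, lysosomal proteases, NADPH oxidase subunits, inflammatory mediators and some granule proteins that granulocytes also make), C/EBPα occupied 2.15, 6.45, 7.53, 8.60, 11.8, 12.9, 14.0 and 11.8%, C/EBPβ 1.08, 3.23, 6.45, 11.8 and 11.8% and PU.1 18.3, 21.5, 23.7, 22.6 and 24.7%. All 3 factors were above their share of all promoters in every library. Of 21 macrophage promoters with enough reads, 14 had at least 2-fold more C/EBPα at 48 than at 0 hpi. For C/EBPβ it was 21 of 26 and for PU.1 17 of 40, and none had less. Over all promoters 21.2, 45.0 and 6.67% had more, and over the CpG-poor ones 34.7, 45.9 and 13.4%. The median log2 ratios were 1.35, 2.22 and 0.68, beside 0.52, 0.86 and 0.07 over all promoters. Over CpG-poor promoters they were 0.63, 0.87 and 0.12, and only 4.30% of the macrophage promoters were CpG-rich. Promoters low at 0 hpi could reach the minimum density only through the 48 hpi library. These shares and medians therefore do not test a difference between macrophage and other promoters. *Ccl3*, a chemokine gene, had C/EBPα densities of 12.7, 47.4, 129, 120.4, 91.2, 122, 93.1 and 90.1, and *Csf2rb*, encoding the shared β chain of the IL-3, IL-5 and GM-CSF receptors, reached a C/EBPβ density of 166 at 48 hpi.

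The median PU.1 density of pre-B cell promoters was 12.5 at 0 hpi and 8.40 at 48 hpi. Over all promoters it was 5.80 and 4.89. Of 71 promoters of 38 genes, C/EBPα occupied 0, 1.41, 1.41, 1.41, 1.41, 4.23, 1.41 and 2.82%, C/EBPβ 1.41, 0, 0, 0 and 0% and PU.1 9.86, 11.3, 11.3, 12.7 and 9.86%. The corresponding shares of all promoters were 0.912, 0.584, 1.69, 1.66, 2.35, 7.51, 4.25 and 3.64% for C/EBPα, 0.665, 0.807, 0.841, 1.45 and 3.34% for C/EBPβ and 7.4, 8.98, 13.8, 9.85 and 7.05% for PU.1. With enough reads in only 14, PU.1 was lower at 48 than at 0 hpi in 3 and higher in none (median log2 ratio -0.66). Over all promoters 3.03% were lower and 6.67% higher. With enough reads in 13, C/EBPβ was lower in 2 and higher in 3 (median -0.70), beside 2.03% lower and 45.0% higher over all promoters. For C/EBPα 3 of 7 were higher and none lower (median 0.31), beside 21.2% higher and 0.41% lower over all promoters. Promoters could reach the minimum density only through their higher library, so these counts and medians do not test a difference from other promoters. *Vpreb1*, a surrogate light chain gene of the pre-B cell receptor, was the only one of these pre-B promoters that C/EBPα occupied at 12, 24 and 48 hpi alike, with 19.6, 13.6, 10.3, 15.8, 19.3, 59.9, 45.9 and 50.2.

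Lists of broadly expressed genes followed the 12 hpi maximum, at which C/EBPα occupied 7.51% of all and 21.4% of CpG-rich promoters and PU.1 13.8% and 33.7%. Ribosomal protein promoters (109 of 76 genes) were occupied by C/EBPα in 1.83, 0, 0, 0, 0.917, 15.6, 12.8 and 12.8% and by PU.1 in 22.0, 24.8, 45.0, 31.2 and 29.4%. PU.1 was at least 2-fold higher at 12 than at 0 hpi in 22 of 54 of them (beside 38.3% of all promoters) and at 48 hpi in none of 42 (beside 6.67%). *Rps19*, encoding a protein of the small ribosomal subunit, had PU.1 densities of 66.7, 111, 193, 99.0 and 97.6. Respiratory chain promoters (117) were occupied by C/EBPα in 4.27, 0.855, 1.71, 1.71, 9.40, 24.8, 9.40 and 14.5% and by PU.1 in 15.4, 21.4, 42.7, 29.9 and 20.5%, and proteasome promoters (78) by PU.1 in 14.1, 20.5, 34.6, 25.6 and 12.8%. *Psma5*, encoding a proteasome subunit, had 169.8, 162, 278, 194 and 179 for PU.1. DNA replication promoters (91) were occupied by PU.1 in 13.2, 19.8, 33.0, 23.1 and 16.5%. *Mcm3*, which encodes a subunit of the replicative helicase, carried C/EBPβ densities of 19.2, 29.9, 63.7, 85.4 and 184. Of 5 replication promoters with enough reads 2 had at least 2-fold more C/EBPβ at 48 than at 0 hpi, near the 45.0% of all promoters.

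Promoters of myeloid regulators, the interferon pathway and the lysosome were compared with all promoters in the libraries with the largest number of occupied promoters. C/EBPα at 12 hpi occupied 11.5%, 13.6% and 18.4% of them, against 7.51% of all promoters. C/EBPβ at 48 hpi occupied 7.29%, 9.09% and 6.90%, against 3.34%. PU.1 at 12 hpi occupied 18.8%, 34.8% and 29.9%, against 13.8%. The lists were 39.6%, 16.7% and 29.9% CpG-rich and were not matched for class. In the same libraries C/EBPα occupied 21.4% of CpG-rich and 2.40% of CpG-poor promoters, C/EBPβ 6.77% and 2.07%, and PU.1 33.7% and 6.51%. C/EBPβ was at least 2-fold higher at 48 than at 0 hpi in 8 of 18 interferon promoters, 9 of 18 myeloid regulator promoters and 6 of 13 lysosome promoters with enough reads, shares near the 45.0% of all promoters. As lists of genes silent in blood cells, the 1180 olfactory receptor promoters were occupied in at most 0.424% (PU.1 at 12 hpi), and of 109 keratin promoters 1 was occupied, by PU.1 at 3 hpi.

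**Figure D4:**
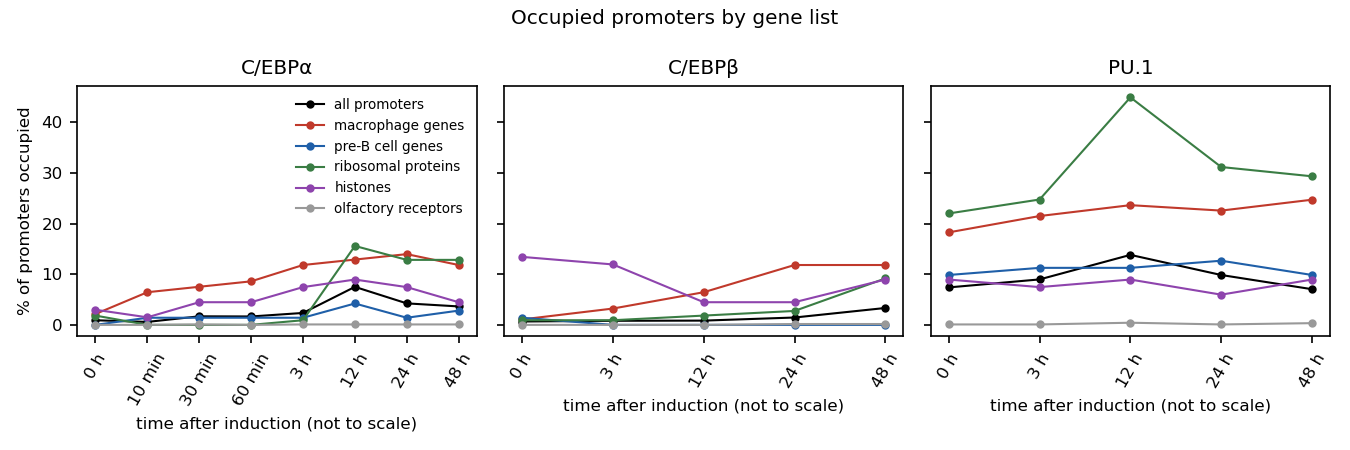
Percent of the promoters of each gene list occupied by C/EBPα, C/EBPβ and PU.1 (y axis) in each library (x axis, time after induction), with all promoters beside them. Macrophage genes lay above all promoters in every library, ribosomal protein genes had their PU.1 maximum of 45.0% at 12 hpi, histone genes had their C/EBPβ maximum of 13.4% at 0 hpi, and olfactory receptors stayed near 0.

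At the same time point the promoters called occupied by the 3 factors overlapped in part. At 48 hpi C/EBPα occupied 3.64%, C/EBPβ 3.34% and PU.1 7.05% of all promoters. At 48 hpi 540 promoters were occupied by both C/EBP factors (38.8% of the C/EBPα and 42.4% of the C/EBPβ promoters), 545 by C/EBPα and PU.1 (39.2% and 20.3%), 464 by C/EBPβ and PU.1 (36.4% and 17.2%), and 235 by all 3. C/EBPα alone occupied 541, C/EBPβ alone 505 and PU.1 alone 1917 of the 4042 promoters with at least 1 factor. Alone means only that the other factors were not called there, and these counts depend on the call. The number with all 3 factors was 127 with 1000 bp on each side of the TSS and 626 with a 2-fold limit. At 12 hpi 1926 promoters carried both C/EBPα and PU.1, which were 67.2% of the C/EBPα and 36.5% of the PU.1 promoters. C/EBPβ then shared 237 with C/EBPα (73.8% of the C/EBPβ and 8.27% of the C/EBPα promoters). Of all promoters 7.51% were occupied by C/EBPα, 0.841% by C/EBPβ and 13.8% by PU.1 at 12 hpi.

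Many C/EBPα promoters had carried PU.1 before induction. PU.1 at 0 hpi occupied 37.1, 43.9, 34.3, 34.1, 38.2, 37.4, 39.7 and 40.8% of the promoters occupied in the 8 C/EBPα libraries, against 7.40% of all promoters. The share thus lay between 34.1 and 43.9% for early and late C/EBPα promoters alike. Among CpG-poor promoters alone it was 34.8, 48.5, 38.4, 36.2, 37.5, 38.9, 39.0 and 41.3%, against 4.02% of all CpG-poor promoters. Among CpG-rich ones, which were 1028 of the 1391 C/EBPα promoters at 48 hpi, it was 37.8, 40.5, 30.0, 31.6, 38.7, 37.0, 39.9 and 40.6%, against 16.6% of all CpG-rich promoters. A difference in how easily a promoter is recovered in any library was not tested. Promoters occupied in all 18 libraries numbered 12 and included *Nfe2*, which encodes an erythroid and megakaryocytic transcription factor, *Dclre1c*, encoding the Artemis nuclease of V(D)J recombination, and *Rarg*, a retinoic acid receptor gene. *Nfe2* had C/EBPα densities of 78.5, 132, 324, 257, 329, 454, 329 and 281.

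Promoters that C/EBPα occupied in all 8 of its libraries were 84, and 70.2% of them were CpG-rich. C/EBPβ occupied 100% of them at 48 hpi with a mean density of 168, and 80% (67.7 to 89.2) of those short enough to be searched held the C/EBP motif. PU.1 occupied 45.2% of them at 0 hpi. Over all promoters C/EBPβ occupied 3.34% at 48 hpi and PU.1 7.40% at 0 hpi, and over CpG-rich ones 6.77% and 16.6%. The motif shares of all promoters and of the CpG-rich ones are given below. The 84 were chosen by their C/EBPα calls. Of the 348 promoters with C/EBPα at 0 hpi, before β-Est was added, 246 were also occupied at 48 hpi. Of 1174 promoters occupied at 30 min, 60 min or 3 hpi, 534 (45.5%) were occupied at 48 hpi, and this was 53.8% for the CpG-rich and 35.9% for the CpG-poor ones. C/EBPα at 48 hpi occupied 3.64% of all promoters, 9.99% of the CpG-rich and 1.30% of the CpG-poor ones. The classes thus had different backgrounds, and their shares do not show which class kept C/EBPα better.

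Motif content differed between libraries as the occupied promoters did. TTGCNNAA, searched on both strands in promoters of at most 1100 bp, was found in 31.8% (31.2 to 32.3) of 30646 promoters. Among promoters occupied by C/EBPα it was found in 47.9, 66.9, 59.0, 61.6, 54.3, 33.5, 37.1 and 36.7% over the 8 libraries, with intervals of 59.1 to 74.0 at 10 min and 31.4 to 35.7 at 12 hpi. C/EBPβ promoters held it in 52.7, 60.4, 67.3, 60.6 and 51.3%, and PU.1 promoters in 27.8 to 30.6%. Without regard to CpG class the 12 hpi C/EBPα set was near the share of all promoters. The sets of the first 3 hpi and all C/EBPβ sets were above it. CpG-rich promoters hold the motif less often in general (23.3%, against 34.2% of CpG-poor ones). Among CpG-rich promoters with C/EBPα the share was 46.5, 69.0, 58.8, 64.4, 52.2, 29.3, 32.5 and 31.6%. Within this class the share thus lay above 23.3% at 12 hpi too.

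The position of the motif was read in promoters with a single start site. In occupied promoters with 1 TSS, a C/EBP motif lay within 50 bp of the densest 100 bp of C/EBPα reads in 28.7, 47.5, 37.1, 40.6, 30.0, 10.7, 13.1 and 16.7%. The median distance of the nearest motif, where there was one, was 34, 18, 30.5, 27, 44, 176.5, 141.5 and 95.5 bp. For C/EBPβ the share within 50 bp was 22.2, 33.1, 38.6, 37.4 and 27.6%, and for PU.1 reads a C/EBP motif was as near in 3.70 to 6.18%. GAGGAAGT, found in 6.97% of all promoters, was found in 21.5, 19.3, 15.9, 18.2 and 22.3% of those occupied by PU.1 and lay within 50 bp of their densest reads in 14.6, 13.9, 11.7, 13.8 and 17.2%. A match is a string of letters in the window and not a site, and its absence says only that these letters are not there.

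**Figure D5:**
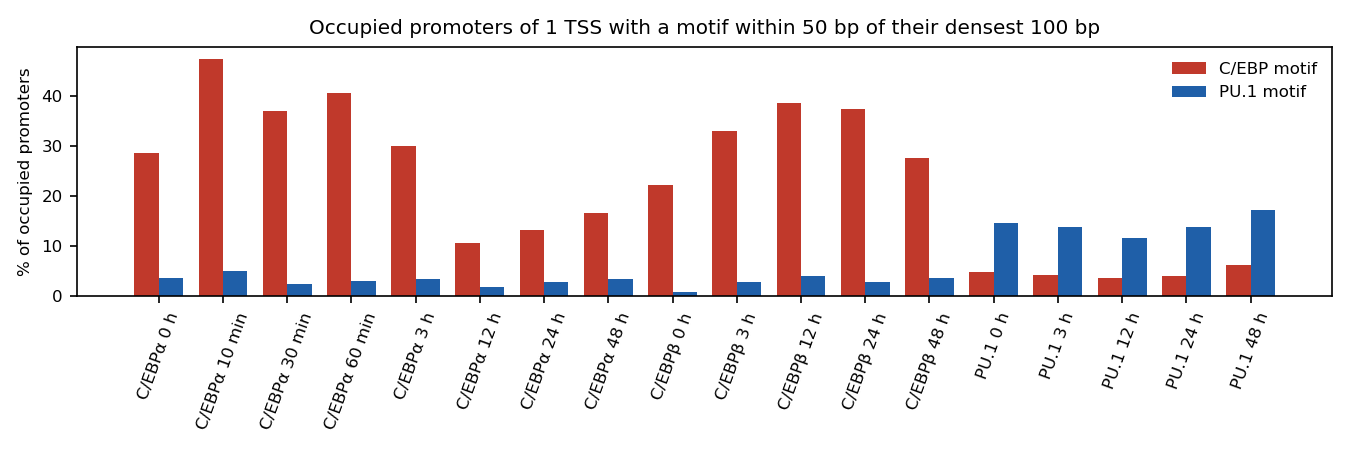
Percent of occupied promoters with 1 TSS that had a C/EBP or PU.1 motif within 50 bp of the densest 100 bp of reads (y axis), by library (x axis). Among the C/EBPα libraries the C/EBP motif was most often near at 10 min (47.5%) and least often at 12 hpi (10.7%), and the PU.1 motif was near PU.1 reads in 11.7 to 17.2%.

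Motifs were also counted in promoters with a changed PU.1 density. The AP-1 motif TGANTCA was found in 35.8% (29.6 to 42.3) of the promoters with more PU.1 at 48 hpi, 19.4% of those with less and 22.5% of all promoters. The C/EBP motif was found in 34.9% and 20.4%, beside 31.8% of all, and the PU.1 motif in 30.2% and 20.4%, beside 6.97% of all. Since 243 of the 284 promoters with more PU.1 were CpG-poor, the shares were also read within that class. There AP-1 was found in 39.3% (32.5 to 46.4) of those with more PU.1, 21.1% (12.5 to 31.9) of those with less and 25.6% of all. The C/EBP motif was found in 36.3% (29.7 to 43.4), near the 34.2% of all CpG-poor promoters, and the PU.1 motif in 30.3% (24.1 to 37.2), against 7.44%. CCAAT, the letters of a common promoter element, was found in 71.4% of all promoters. The string is short and was searched on both strands, so this share does not measure how common the element is.

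The same counts were made over the rest of the genome. Tiles started lower than promoters, so that more of them could reach the minimum density only through the library in which they were high, and the shares are no test of a difference between promoters and tiles. At 48 hpi C/EBPα was at least 2-fold higher than at 0 hpi in 56.7% of 4879 tiles with enough reads, against the 21.2% of promoters, and at 3 hpi in 77.5% of 10551 tiles against 34.6%. From 3 to 12 hpi 6.68% of the tiles were higher and 20% lower, against 22.8% and 1.73% of promoters. Occupied tiles numbered 795, 2003, 7241, 8181, 8705, 6238, 4669 and 4058 in the C/EBPα libraries, and promoters made up 30.4, 10.0, 8.18, 7.19, 9.36, 31.5, 25.8 and 25.5% of all windows and tiles occupied by C/EBPα. The fall of this share between 0 hpi and 60 min came with more occupied promoters, 348 and 634, and a larger rise in occupied tiles. For C/EBPβ it was 19.7, 6.87, 10.2, 9.45 and 11.7%, and for PU.1 12.6, 13.6, 16.5, 17.0 and 12.0%. PU.1 from 0 to 12 hpi was higher in 38.3% of promoters and 20.3% of tiles, and from 0 to 48 hpi in 6.67% of promoters and 20% of tiles. Tiles with less PU.1 at 48 hpi were also more frequent, 12.3% against 3.03% of promoters, and both medians were 0.07 on the log2 scale.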

How the data were processed

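From C10 cells 8 ChIP-seq libraries were analysed for C/EBPα and 5 each for PU.1 and C/EBPβ, 1 per factor and time. Alignment by the authors was to mm9, by ELAND or Bowtie with no mismatch allowed. They removed identical reads and reads that did not align uniquely, and deposited the position and strand of each read, with no normalization and no control library. Per the labels HOMER and Bowtie were used, and versions are not given in the sources used here. The study's methods and the labels differ in the unit of the β-Est dose, and the labels' value is given. The paper's own annotation was replaced by GENCODE vM1.

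Read counts were computed here from the deposited positions. Each 5′ end was moved 75 bp inward and 1 read was kept per position and strand, which removed 2.52% of the C/EBPα reads at 3 hpi and at most 0.187% elsewhere. A read without coordinates was dropped from PU.1 at 0 hpi, a library that is named as merged in the study's tables. Depth ranged from 2824293 to 24236183 reads. Values are reads per kb per 10000000 reads, calls are as the report defines them, and with 1 library per time no test was made. Named promoters were the 8 first by density at 48 hpi per factor, the 8 largest and 8 smallest ratios of 48 over 0 hpi, for C/EBPα also the extremes of 60 min and 3 hpi over 0 hpi and of 48 over 3 hpi, and list members, passing over gene models without a name and windows with over 80% of reads on 1 strand. The examples described among these, the family lists of tRNA synthetases and amino acid metabolism, and the C/EBP-ATF motif were chosen after their values were seen, and the members and lists as a whole were chosen with earlier results of these data known. The counting was tested on simulated data. Python 3.11.15, numpy 2.4.6, pandas 2.3.3, SciPy 1.17.1 and matplotlib 3.10.9 were used. Alternatives were other window widths, thinning to 2824293 reads, all deposited reads, other thresholds, filters and pseudocounts, and scaling to promoters occupied in no library.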

Additional observations from a re-analysis of the deposited data

How the results depend on the processing

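Of 132 alternative values of 18 results under 11 settings, 89 lay within the limit set for an unchanged result, 42 moved and 1 changed sign, the log2 ratio of the PU.1 promoter share of reads between 48 and 0 hpi, which was -0.01 and became 0.00826 with 1000 bp on each side of the TSS. The cause of the other moves was not tested except where fewer or more reads or promoters enter by construction. The limit for an unchanged result was wide. C/EBPα at 48 hpi occupied 1391 promoters in the main analysis and 996 with thinned libraries, which counted as unchanged. With 250 bp on each side C/EBPα occupied 606 promoters at 0 hpi, and C/EBPα was higher at 852 and lower at 33 promoters at 48 than at 0 hpi, C/EBPβ lower at 168, and PU.1 higher at 447 and lower at 242. With 1000 bp on each side C/EBPα occupied 119, 1522 and 574 promoters at 0, 12 and 48 hpi, C/EBPβ 134 at 0 hpi, and all 3 factors 127 at 48 hpi, and C/EBPα was higher at 145 and lower at 1, C/EBPβ lower at 8 and PU.1 higher at 178. With 2-fold in place of 4-fold C/EBPα occupied 1177, 4481 and 3047 promoters at 0, 12 and 48 hpi, PU.1 7977 at 12 hpi, and all 3 factors 626 at 48 hpi. A Poisson limit of 1e-07 left 75 C/EBPβ promoters at 0 hpi. With every library thinned to 2824293 reads C/EBPα occupied 288, 2061 and 996 promoters at 0, 12 and 48 hpi, all 3 factors 148 at 48 hpi, C/EBPα was higher at 563 and lower at 45, C/EBPβ lower at 71, and PU.1 higher at 455 and lower at 254. A pseudocount of 1 gave 14 lower C/EBPα and 64 lower C/EBPβ promoters. A minimum mean density of 10 gave 1054 higher and 91 lower C/EBPα, 1748 and 476 C/EBPβ, and 551 and 293 PU.1 promoters, and no minimum gave 1642 and 721, 3615 and 2404, and 1042 and 1126. The number of promoters occupied by C/EBPα at 12 hpi stayed above those of 0 and 48 hpi under the 7 settings in which it was recomputed. The PU.1 numbers of 0 and 48 hpi, 2826 and 2691, changed their order with 250 bp on each side (2965 and 3132), thinning (2101 and 2195), 2-fold (3896 and 4703) and a Poisson limit of 1e-07 (2304 and 2604). No paired analysis was possible because each factor and time had 1 library, and for the same reason no replicate could be left out.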
